A study of Homo sapiens with 6 samples.

Results

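Amino acid transporter families of SK-MEL-28, a human cutaneous melanoma cell line, were described by their transcript levels. The members were the protein-coding genes whose symbols begin with SLC1A, SLC3A, SLC6A, SLC7A, SLC15A, SLC16A10, SLC36A, SLC38A or SLC43A. The annotation held 66 such genes, and 27 of them were among the 13449 genes of the deposited table. Cells had been transfected by lipofection with siRNA, either against DANCR, a long non-coding RNA (siDANCR), or as control cells. The labels do not specify the control siRNA, and the study describes a non-targeting control. Poly(A) RNA was sequenced from 3 control and 3 siDANCR libraries, 6 in all. Nothing in the labels says whether the libraries of a group came from separate cultures. The methods of the study describe RNA prepared in triplicate and 3 biological replicates in each case. No further allele or agent is given for either group, and it is not given which DANCR siRNA was used. The labels name DMEM as the medium while the methods of the study name RPMI.

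The table gives for each gene 1 mean over all libraries, so control and siDANCR cells are pooled in every value below. A difference between the groups, and the spread between replicates, could therefore not be measured here, and no test was made. Levels describe the cell line averaged over both treatments. A level is the authors' mean of normalised counts, divided by the length of the gene's canonical transcript in kb, so that genes can be set beside each other.

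Amino acids cross membranes on solute carriers, which are grouped in SLC families by sequence. Exchangers of the SLC7 family trade 1 amino acid for another, and several of them reach the plasma membrane only as light chains bound to the SLC3A2 heavy chain (4F2hc, CD98). SLC1 and SLC38 members draw on the sodium gradient, and some members of each of SLC36, SLC15 and SLC38 work at the lysosome. ATF4, a transcription factor made when amino acids are short, is known to induce several carriers, among them the cystine and glutamate exchanger SLC7A11, the large neutral amino acid exchanger SLC7A5 and SLC3A2. Melanoma cells are known to depend on such carriers for leucine and glutamine.

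The mean normalised counts of the table summed to 15059759, and its lowest mean was 23.1. Melanocyte lineage markers were high, with 7 of 8 listed at levels from 1219 normalised counts per kb for TYR to 11535 for PMEL, and TYRP1 was not listed. Of markers for keratinocytes and leukocytes, none of 3 and none of 3 were listed, while LUM at 242, CDH1 at 97.8 and VWF at 2.75 normalised counts per kb were the listed ones of the fibroblast, epithelial and endothelial lists. For scale, ACTB stood at 35421, GAPDH at 24164 and DANCR, the target of the siRNA, at 108 normalised counts per kb. The depletion of DANCR could not be checked from a mean over both groups.

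A few carriers held most of the transporter transcripts. SLC7A5 was highest, at 4662 normalised counts per kb, followed by SLC3A2 at 2873, SLC7A8 at 2668, SLC1A4 at 2359 and SLC1A5 at 1487. These 5 genes made up 71.3% of the summed level of the 27 listed members. They held 64.7% of the members' mean normalised counts and 67.6% of the summed level per kb of coding sequence. On both of those scales SLC7A1 was number 4 and SLC1A5 number 6. The lowest listed member was SLC43A2, at 9.10 normalised counts per kb, so that levels spanned a 512-fold range. Under the other length definitions SLC1A3 was the lowest, and the range reached 2087-fold per kb of exon union. The median of the members was 254 normalised counts per kb, against 118 over the 11376 listed protein-coding genes with a transcript length. Of the members, 17 lay above that protein-coding median and 10 below it, and 8 lay in the upper 10% of protein-coding genes, above 597 normalised counts per kb. The 10 low members together held 1.57% of the summed level.

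**Figure D1:**
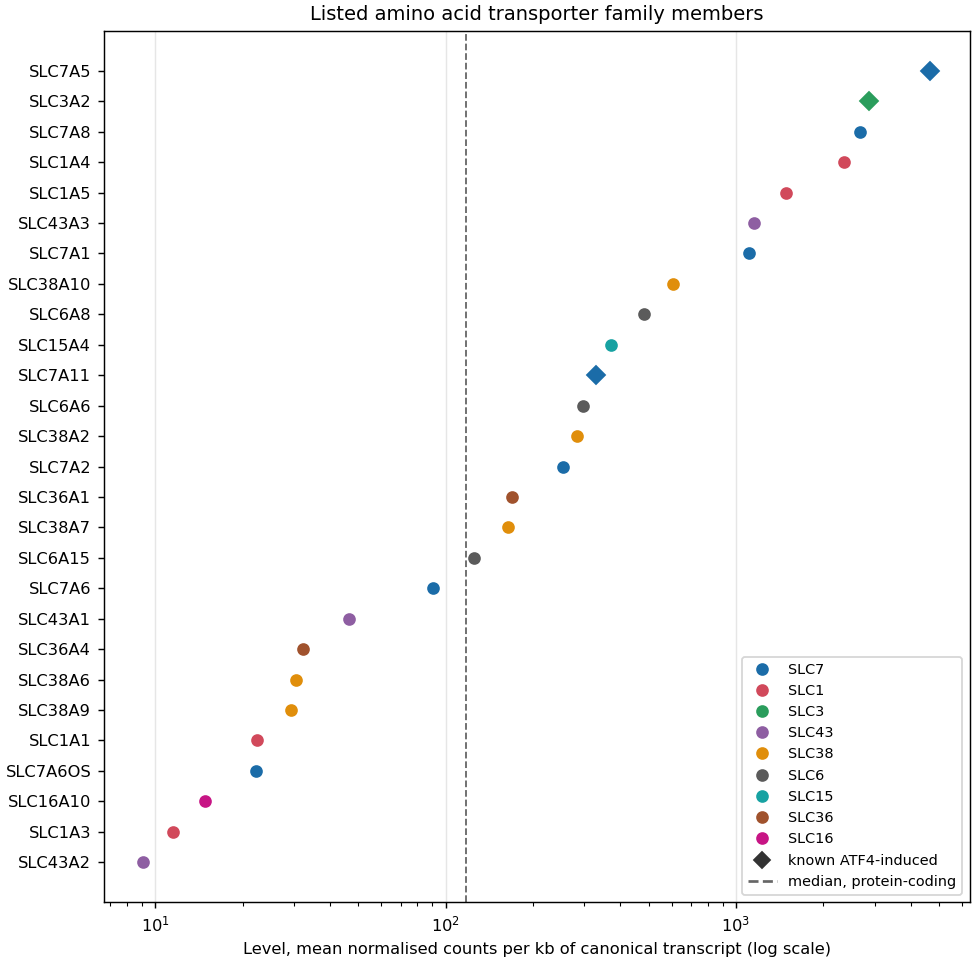
Level of each of the 27 listed members in mean normalised counts per kb of canonical transcript (log axis), pooled over all 6 libraries. Colours give the subfamily, diamonds the known ATF4-induced carriers and the dashed line the median of listed protein-coding genes, 118. SLC7A5 stands highest at 4662, and SLC7A11 lies at 329 in the middle of the order.

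**Figure D2:**
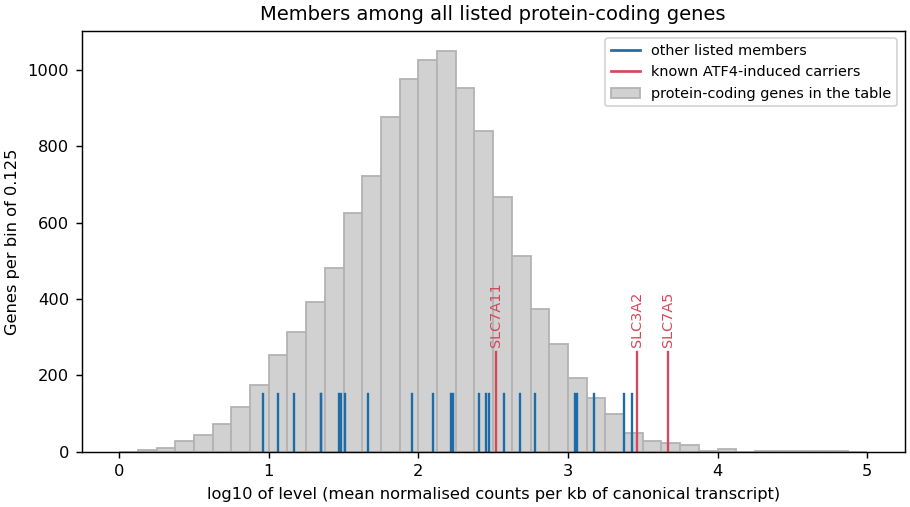
Histogram of the level of 11376 listed protein-coding genes on a log10 scale, in bins of equal width, and a vertical line at the level of each listed member (lines have no height of their own). The members are spread over most of the range, with SLC3A2 and SLC7A5 in the upper tail and SLC7A11 nearer the centre.

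The light chains of SLC3A2 were dominated by a pair of large neutral amino acid exchangers. SLC7A5 (LAT1), which imports leucine and other large neutral amino acids in exchange for glutamine, was above 99.4% of protein-coding genes. The gene occupies chr16:87863629-87903113 on the minus strand (GRCh37). Its 21239 mean normalised counts were 25.9% of those of all listed members, and the pseudogene SLC7A5P1, whose reads could be mixed with those of SLC7A5, was listed at 0.391% of that mean. SLC7A8 (LAT2), a relative with a broader range of neutral substrates, was at 2668 normalised counts per kb (chr14:23594504-23652883, minus strand), so that SLC7A5 was 1.75-fold higher. SLC7A11 (xCT), which takes up cystine for glutathione synthesis, was at 329 normalised counts per kb (chr4:139085251-139163503, minus strand), and SLC7A6 (y+LAT2), which exchanges cationic for neutral amino acids, at 90.8. The light chains SLC7A7 and SLC7A10 were not listed. Of the summed level of the 4 listed light chains, SLC7A5 held 60.2%, SLC7A8 34.4%, SLC7A11 4.24% and SLC7A6 1.17%. The share of SLC7A11 was 8.99% per kb of coding sequence.

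SLC3A2 itself (chr11:62623476-62656352, plus strand) was at 2873 normalised counts per kb, above 99.0% of protein-coding genes. This was 0.371 times the summed level of its listed light chains, 7749 normalised counts per kb. The ratio depends on the length used, since the canonical SLC3A2 transcript is 1885 bases long and the exons of all its transcripts together cover 6392 bases. It was 0.145 per coding length and 0.126 per union of exons, and the light chains summed to more than the heavy chain under each of the 4 length definitions. The other heavy chain gene, SLC3A1, and its partners SLC7A9 and SLC7A13 were not listed.

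The SLC7 carriers of cationic amino acids need no heavy chain. SLC7A1 (CAT1), the widely expressed importer of arginine and lysine, was at 1107 normalised counts per kb (chr13:30083551-30169825, minus strand), above 95.5% of protein-coding genes. SLC7A2 (CAT2) was at 254, so that SLC7A1 was 4.37-fold higher, and SLC7A3 and SLC7A4 were not listed. SLC7A14, a lysosomal relative, was not listed either. SLC7A6OS meets the symbol rule but encodes no transporter and is named for its place opposite SLC7A6. It was at 22.3 normalised counts per kb, and 80.5% of its canonical exon bases overlap exons of SLC7A6 on the other strand. In turn 59.9% of those of SLC7A6 overlap genes on the opposite strand, and since it is not given whether counting used the strand, both values are uncertain.

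**Figure D3:**
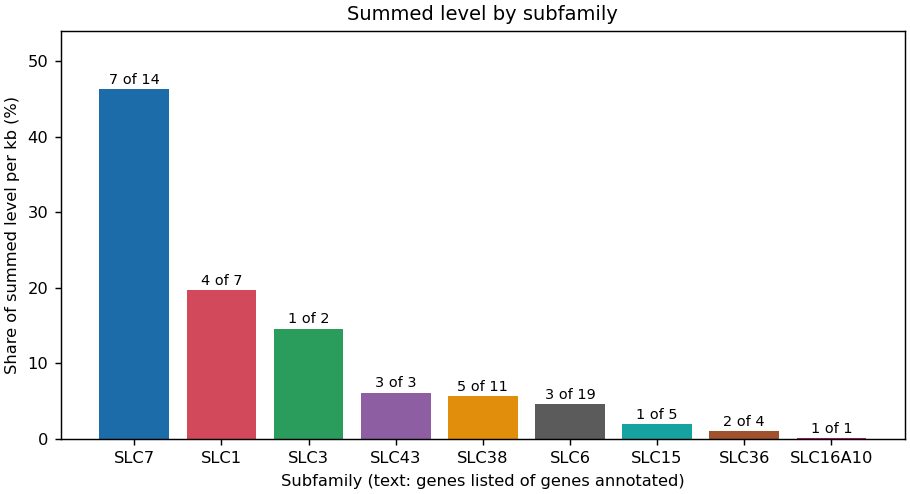
Share of the summed level per kb of the 27 listed members that each subfamily held, in percent, with the number of genes listed of those annotated above each bar. SLC7 held 46.4%, SLC1 19.7% and SLC3, as SLC3A2 alone, 14.6%, which was 6.83% per kb of coding sequence and 6.01% per kb of exon union.

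By subfamily, SLC7 held 46.4% of the summed level with 7 of 14 genes listed, and SLC1 held 19.7% with 4 of 7. SLC6 had the smallest share of its genes listed, 3 of 19, and 4.58% of the summed level. Of all members 40.9% were listed, against 56.6% of the 20175 annotated protein-coding genes. An unlisted gene has no value here, and the reason for its absence is not known, so it was not read as silent.

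Among listed SLC1 and SLC38 carriers of small neutral amino acids and glutamine, those of SLC1 were highest. SLC7A8, with its broader range of neutral substrates, was above them at 2668 normalised counts per kb. SLC1A4 (ASCT1), an exchanger of alanine, serine and cysteine, was at 2359 normalised counts per kb (chr2:65215611-65250999, plus strand). SLC1A5 (ASCT2), known for glutamine uptake, was at 1487 (chr19:47278140-47291851, minus strand). SLC1A4 was thus 1.59-fold higher per kb of canonical transcript, 2.55-fold per kb of coding sequence and 1.21-fold per kb of exon union. The sodium-coupled SLC38A2 (SNAT2), which is known to be induced when amino acids are short, was at 283 normalised counts per kb. Its neighbours on chromosome 12, SLC38A1 and SLC38A4, were not listed, and neither were SLC38A3, SLC38A5, SLC38A8 and SLC38A11. SLC38A10 was at 606 normalised counts per kb, 2.14 times SLC38A2, but per kb of coding sequence the order turned and it was 0.906 times SLC38A2. SLC38A6 stood at 30.6.

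The glutamate transporters of SLC1 were low. SLC1A1 (EAAT3) was at 22.4 and SLC1A3 (GLAST) at 11.6 normalised counts per kb, and their sum was 0.103 times the level of SLC7A11, which exports glutamate, or 0.0382 times per kb of coding sequence. SLC1A2, SLC1A6 and SLC1A7 were not listed.

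Large neutral and aromatic amino acids are also carried by facilitators outside SLC7. All of these were listed and low, SLC43A1 (LAT3) at 46.4, SLC16A10 (TAT1), a carrier of aromatic amino acids, at 14.8 and SLC43A2 (LAT4) at 9.10 normalised counts per kb. SLC7A5 was 100.5-fold higher than SLC43A1, or 201-fold per kb of coding sequence. SLC43A3, a carrier of purine nucleobases despite its family, was at 1150.3 normalised counts per kb, 24.8-fold higher than SLC43A1, which lies near it on chromosome 11. Of the canonical exon bases of SLC43A3, 51.5% overlap exons of another gene annotated on the same strand, so that its reads could have been split between them.

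Members of the lysosomal membrane lay in the middle of the order or below. SLC15A4, a carrier of histidine and small peptides, was at 372 normalised counts per kb and was the listed 1 of 5 SLC15 genes. SLC36A1 (PAT1), which exports small amino acids with protons, was at 169.9, 5.26-fold higher than SLC36A4 (PAT4) at 32.3. SLC38A7, an exporter of glutamine and asparagine, was at 165 and SLC38A9, the arginine sensor of mTORC1, at 29.5 normalised counts per kb. SLC15A1, SLC15A2, SLC15A3 and SLC15A5 were not listed, nor were SLC36A2 and SLC36A3, the neighbours of SLC36A1 on chromosome 5.

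In SLC6, which holds mostly carriers of neurotransmitters and osmolytes, the creatine transporter SLC6A8 was at 481 normalised counts per kb and the taurine transporter SLC6A6 at 297. SLC6A15, a carrier of branched-chain amino acids known from neurons, was at 125, above 51.7% of protein-coding genes. The carriers of noradrenaline, dopamine, serotonin and glycine, SLC6A2, SLC6A3, SLC6A4, SLC6A5 and SLC6A9, were among the SLC6 genes not listed. So were SLC6A7, SLC6A11, SLC6A12, SLC6A13, SLC6A14, SLC6A16, SLC6A17, SLC6A18, SLC6A19 and SLC6A20.

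Known ATF4-induced carriers were set beside the other members, which were not selected to be free of ATF4 induction. Among the others, SLC38A2 is known to be induced when amino acids are short. Promoter windows of SLC1A3, SLC1A4, SLC1A5 and SLC7A1, given below, held the core of the element that ATF4 binds. SLC7A5, SLC3A2 and SLC7A11 together held 39.9% of the summed level per kb, and 36.4% of the members' mean normalised counts. Their median was 2873 normalised counts per kb, 17.2-fold above the median of the other 24 members, 167. That figure rests on SLC3A2, and per coding length the median was 6.36-fold above. The carriers did not lie together. Per kb of canonical transcript SLC7A5 and SLC3A2 were the upper pair of the order, while 8 of the other members were above SLC7A11.

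The place of SLC7A11 depends on how length is counted. Its canonical transcript has 9645 bases, of which 84.4% are non-coding, against 66.6% for SLC7A5 and 15.8% for SLC3A2. SLC7A5 was 14.2-fold higher than SLC7A11 per kb of transcript and 6.62-fold higher per kb of coding sequence. In the order of members SLC7A11 was number 11 per kb of transcript and number 7 per kb of coding sequence, while SLC7A5 was number 1 on each scale. SLC3A2 was number 2 per kb of canonical transcript, number 5 per kb of coding sequence and number 6 per kb of exon union.

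**Figure D4:**
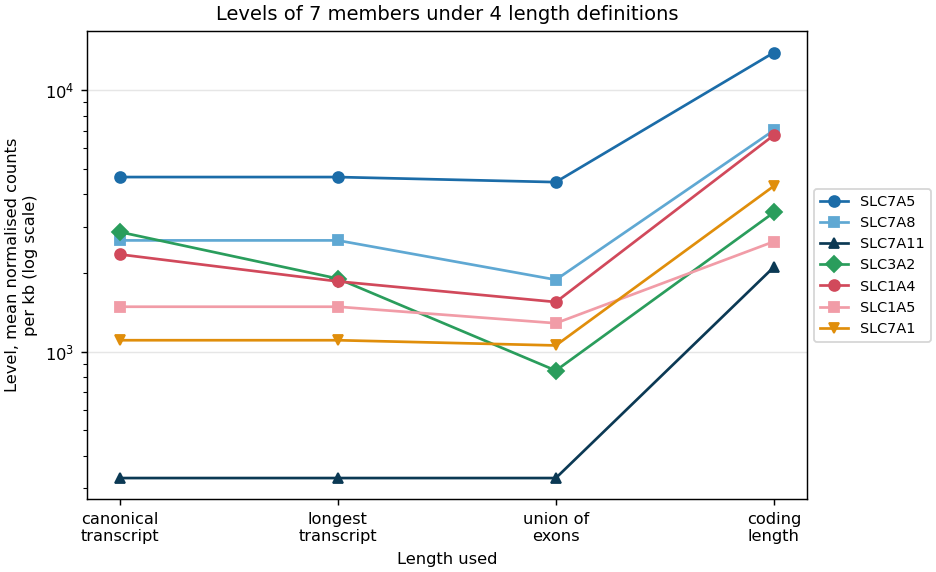
Levels of 7 members in mean normalised counts per kb (log axis) under 4 definitions of length, namely canonical transcript, longest transcript, union of annotated exons and coding length. SLC7A5 is highest in each, whereas SLC3A2 moves from 2873 per kb of canonical transcript to 847 per kb of exon union, below SLC7A1 at 1057.

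Promoter windows of the members were searched for TGATGNAA, the core of the element that ATF4 binds with C/EBP partners, on both strands. RefSeq windows (GRCh38.p14, 250 bases before to 50 after each annotated start) were matched for 22 of the 27 listed members, and some genes have several starts. SLC7A2, SLC7A11, SLC6A6, SLC6A15 and SLC43A3 had no entry. A match was held by 5 of the 22 genes, or 5 of 40 windows (12.5%), against 3.62% of all 35116 windows, 1.92% of the 13886 windows of other listed protein-coding genes and 6.25% of the 32 windows of unlisted members. The windows around these matches are shown because they place the motif beside starts of SLC3A2, SLC1A4, SLC1A5 and SLC7A1, which are among the 7 highest members, and of SLC1A3. They are written 5′ to 3′ on the strand of the gene with the match in capitals, and in SLC3A2 and SLC1A4 the capitals are the reverse complement of the motif.
SLC3A2, chr11:62881725-62881748, plus strand: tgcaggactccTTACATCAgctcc
SLC1A4, chr2:64989381-64989410, plus strand: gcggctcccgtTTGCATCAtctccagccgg
SLC1A5, chr19:46784893-46784922, minus strand: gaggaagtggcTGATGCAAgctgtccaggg
SLC7A1, chr13:29595663-29595692, minus strand: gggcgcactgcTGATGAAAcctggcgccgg
SLC1A3, chr5:36596357-36596386, plus strand: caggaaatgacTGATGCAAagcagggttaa

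In SLC3A2, SLC1A4, SLC1A5 and SLC1A3 the match lies in the window of 1 of 2 or 3 annotated starts, and in SLC7A1 in the window of its single entry. Genes with a match were at both ends of the order, SLC3A2 at 2873 and SLC1A3 at 11.6 normalised counts per kb. The window of SLC7A5 held no match. It held the E-box CACGTG, which MYC and MITF can bind, as did windows of SLC7A8, SLC1A5, SLC36A1, SLC38A7 and SLC43A1, 6 of the 22 genes. The E-box was in 15.0% of the 40 windows of listed members, in 7.26% of all windows, in 9.56% of those of other listed protein-coding genes and in 12.5% of the 32 windows of unlisted members. The window around it in SLC7A5 is shown for the highest member, with the E-box in capitals.
SLC7A5, chr16:87869621-87869648, minus strand: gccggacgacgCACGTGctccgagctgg

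Some neighbouring members differed in being listed. With gaps of at most 500 kb between genes, members formed 9 groups of neighbours on GRCh37, of which 3 held both listed and unlisted genes. In 2 of them, SLC43A3 with SLC43A1 and SLC7A6 with SLC7A6OS, every gene was listed. SLC7A8 was listed and its neighbour SLC7A7 on chromosome 14 was not, while in the groups of SLC6A12 with SLC6A13, SLC7A9 with SLC7A10, and SLC6A19, SLC6A18 and SLC6A3 none was listed.

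Lists of genes that work with the carriers were chosen with earlier results of these data known. All genes of these lists had values, against 56.6% of annotated protein-coding genes. Given that choice, their listing was not read as a result. In the ATF4 pathway list of 10 genes, ATF4 was at 1425 normalised counts per kb and its partner CEBPB at 1865. PPP1R15A, which directs the dephosphorylation of the translation factor eIF2, was at 505, and EIF2S1, the eIF2 subunit that is phosphorylated, at 326. The lowest was EIF2AK3 (PERK), a kinase of that subunit, at 61.4 normalised counts per kb. The 16 genes of amino acid sensing at the lysosome ranged from 20.4 for the arginine sensor CASTOR1 to 713 for LAMTOR1, a subunit of the Ragulator complex, in normalised counts per kb. Among the mitochondrial carriers the serine carrier SFXN1 was highest of 7, at 1248, and the aspartate and glutamate carrier SLC25A13 was at 606 normalised counts per kb. Of the other lysosomal carriers, MFSD12, the cysteine importer of lysosomes and melanosomes, was at 8751 normalised counts per kb, and the cystine exporter CTNS was at 92.2. Per kb of canonical transcript MFSD12 was above every amino acid transporter family member. Its 18701 mean normalised counts were below the 21239 of SLC7A5.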

How the data were processed

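Reads were processed by the submitters, whose processing notes name Trim Galore 0.4.4, Bowtie 1.1.2, hg19 (GRCh37) and DESeq2. Libraries were strand-specific (dUTP). For the counting tool, its annotation and its use of strand, nothing is stated in the sources used here. The deposited signal is the authors' mean of normalised counts per gene over all libraries. Per the file headers, the other columns hold the authors' own comparison of the groups (log2 fold change, its standard error, Wald statistic, p and adjusted p) and were not used. There were 0 columns of values per library, so depth and precision per library are unknown. A second sheet, a subset of the same genes, was not used.

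IDs without version were matched to GENCODE release 44 lifted to GRCh37 (13161 of 13449 named). Each mean was divided by the exon length of the canonical transcript. The functions were tested on simulated data. Calculations used scipy 1.17.1, numpy 2.4.6, matplotlib 3.10.9 and pandas 2.3.3 under Python 3.11.15. Every listed member was to be named, with up to 4 genes of each other list. Members and lists were chosen with earlier results of these data known. A planned protein alignment was not made. Some items are not reported here.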

Additional observations from a re-analysis of the deposited data

How the results depend on the processing

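No paired analysis was possible because all libraries share 1 mean per gene, and for the same reason no replicate could be left out and no count model could be fitted. Counting error was a 95% interval symmetric about each value, with mean normalised counts taken as counts. It measures neither the spread between libraries nor the effect of the length chosen, and served only as a yardstick. The share of the ATF4-induced carriers was 38.0% per kb of the longest transcript, 39.0% per kb of coding sequence and 36.4% as deposited, against 39.9%. Their median over that of the other members was 12.0 with the longest transcript, 7.03 with the union of exons, 6.36 with coding length, 6.57 as deposited and 13.6 with members of a mean of at least 50, against 17.2. The ratio of SLC3A2 to its light chains was 0.246 with the longest transcript, 0.126 with the union of exons, 0.145 with coding length and 0.149 as deposited, against 0.371. The other 9 values of these results stayed within counting error or within 1.5 times the count of 27. Only the share of the ATF4-induced carriers with the union of exons, 39.9%, came from another length or scale. The rest came from leaving out low members or SLC7A6OS, which held little of the summed level, so they could hardly move. Among them were 25 members at a mean of at least 50, 21 at a mean of at least 100 and 26 without SLC7A6OS. The count of 26 was fixed by leaving that gene out. The ratio of SLC3A2 to its light chains could not change at a mean of at least 50 or without SLC7A6OS. Neither setting removed SLC3A2 or a listed light chain. Of the subfamily shares under all settings, 34 moved beyond counting error and 20 did not. All 34 came from another length or scale, where only SLC6 with coding length and SLC16A10 with the longest transcript stayed. The other settings left out genes with little of the summed level, SLC38A6 with 0.155%, SLC1A3 with 0.0587% and SLC7A6OS with 0.113%. That the shares stayed there says little. SLC7 held from 46.3% to 57.8%, SLC1 from 18.5% to 20.3% and SLC3 from 6.01% to 14.6%. SLC43, SLC38 and SLC6 held 6.12%, 5.66% and 4.58%, and with coding length 4.32%, 4.54% and 4.61%, in the opposite order.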
